A study of Rattus norvegicus with 16 samples.

Results

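The glycolysis and hypoxia-responsive genes described here are 35 named rat genes of glucose breakdown, of the fate of pyruvate and of the response to low oxygen. They were followed in levator ani satellite cells (LASCs), the muscle stem cells of a pelvic floor muscle that grows under androgens. A probe set, the group of short oligonucleotides that reads 1 transcript on the array, was taken as a member if it was annotated with exactly 1 of these symbols and its mean signal over 13 arrays was at least 300. Of the 35 genes, 33 had such a probe set, out of 11287 genes that met the same signal minimum on the whole array. The 33 genes were read by 51 probe sets. Their 6 Affymetrix control probe sets, 3 for Gapdh and 3 for Hk1, stood outside the main test, which left 45 probe sets of 32 genes. Another 9 probe sets of listed genes lay under the minimum, with mean signals between 94.4 and 273, and the lowest member tested averaged 352. Egln3 was read only by 1 of those 9 probe sets, and Pkm only by a probe set that carried a further symbol, so neither gene was measured here.

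Cells were exposed for 48 h or 4 h to 10 nM of NARA, which stands for a nonsteroidal agonist of the androgen receptor, or to the vehicle alone, 0.2% DMSO, for the same times. All groups were passage 5 cultures, kept during treatment in a medium with charcoal-stripped serum, from which most steroids have been removed. The compound is known here only by that abbreviation. Of 4 arrays deposited per group, those kept were 4 for NARA at 48 h, 3 for vehicle at 48 h, 2 for NARA at 4 h and 4 for vehicle at 4 h. The labels call them biological replicates without saying that each came from its own culture or animal, so the p-values rest on a spread between samples that may be technical.

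Glycolysis splits glucose into pyruvate. Its committed step is made by phosphofructokinase, which is tuned by the bifunctional Pfkfb enzymes. Pyruvate then becomes lactate through lactate dehydrogenase, or enters the mitochondrion through pyruvate dehydrogenase, which the kinases Pdk1 to Pdk4 switch off. When oxygen is short, the prolyl hydroxylases Egln1 and Egln3 no longer mark the transcription factor subunit Hif1a for destruction, and Hif1a then raises many glycolytic genes together with targets such as Vegfa, Adm, Bnip3 and Ankrd37. Hif1a is controlled mainly at the level of its protein, which these arrays do not measure.

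The authors left out 3 arrays, and these were left out here as well. Across all probe sets the 13 kept arrays had pairwise correlations of 0.930 to 0.956, whereas NARA 4 h replicates 1 and 4 correlated with them only at 0.645 to 0.673. Vehicle 48 h replicate 1 correlated with them at 0.922 to 0.933. The ratio of the 3' to the 5' Gapdh control signal, a measure of RNA integrity, was 1.06 to 1.30 on the NARA 48 h arrays and 1.13 to 1.36 on the vehicle 48 h arrays. It was 3.34 and 2.15 on the left-out NARA 4 h replicates 1 and 4. For the dimmer hexokinase controls the ratio was higher, at 2.45 to 3.95 on the NARA 48 h arrays and 2.42 to 3.79 on the vehicle 48 h arrays. Over the 13 kept arrays it ran from 1.97 to 4.46. Of 14 satellite cell and myoblast markers, 8 were above the signal minimum, Myod1 (mean signal 83.9) and Chrna1 (201) were below it, and for Pax7, Pax3, Myf5 and Cd34 the annotation named no probe set. All 10 fibroblast markers were above the minimum, with Col1a2 at 134203. The signals of the satellite cell and myoblast markers summed to between 13550 and 16279 on the NARA 48 h arrays and between 25824 and 29811 on the vehicle 48 h arrays. The same sum was 19640 to 22125 on the NARA 4 h arrays and 22621 to 27173 on the vehicle 4 h arrays. Those ranges do not overlap at either time, but the gap at 48 h was mostly Cxcr4, a gene that the list of other hypoxia genes below also holds: its 3 probe sets summed to 872 to 1955 under NARA and 10739 to 11841 under vehicle. Without Cxcr4, taken out after the sum was seen, the ranges overlapped at both times, with 12376 to 14324 under NARA and 13982 to 18391 under vehicle at 48 h. Of 12 tested probe sets of this list, 5 had a positive and 7 a negative log2 change at 48 h, with a median of -0.12. At an unadjusted p under 0.05, 2 were higher and 4 lower. After adjustment 4 probe sets of 2 genes passed the test there, all lower, while none passed at 4 h. Those that passed were 33.3% of the list's probe sets, against 2.80% of all probe sets, and all 3 Cxcr4 probe sets were among them. The sums of the fibroblast, endothelial, leukocyte, adipocyte and liver markers overlapped between NARA and vehicle at both times. Of 14 tested fibroblast probe sets, 6 had a positive and 8 a negative change at 48 h. At an unadjusted p under 0.05, 3 were higher and 4 lower. After adjustment 2 fibroblast genes passed at 48 h, both lower, 14.3% of the list's probe sets against 2.80% of all. The part of these marker differences in the results below was not tested. In bulk RNA, fewer cells of a type cannot be told apart from less RNA per cell.

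At 48 h no member probe set differed between NARA and vehicle at the threshold used throughout, a Benjamini-Hochberg adjusted p from limma under 0.05 over all 20904 probe sets tested. The background was 2.80% of all probe sets, 285 higher and 301 lower. The members that came nearest to the threshold were lower under NARA. They were Pfkp, the platelet-type phosphofructokinase (1.44-fold lower, adjusted p = 0.0513), and the aldolase Aldoc (1.36-fold lower, adjusted p = 0.0636). Next came a Vegfa probe set (1.55-fold lower, adjusted p = 0.0761) and a Pgk1 probe set (1.25-fold lower, adjusted p = 0.0977).

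As a whole, 30 of the 45 member probe sets had a negative log2 change at 48 h and 15 a positive one, with a median of -0.11 beside -0.0037 over all probe sets tested. At an unadjusted p under 0.05, 9 were lower (Gpi, Pfkp, Aldoc, Pgk1, Pdk1, Pdk2, Pdha1, Hif1a and Vegfa) and 1 was higher (Ankrd37), which is 22.2% of the members, against 16% of all probe sets. For 7 lower and 2 higher member probe sets, no NARA array fell within the vehicle arrays or the reverse, 20% of the members, against 14.7% of all probe sets. The members' shares were thus somewhat above the background, and no test was made of that difference. For 28 of the 45, the 95% interval of the change lay within 1.5-fold in both directions, and for 37 it lay within 2-fold. Of 12 genes read by several tested probe sets, 9 had the same sign on all of them, and the exceptions were Hk1, Pfkfb2 and Pgk1.

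**Figure D1:**
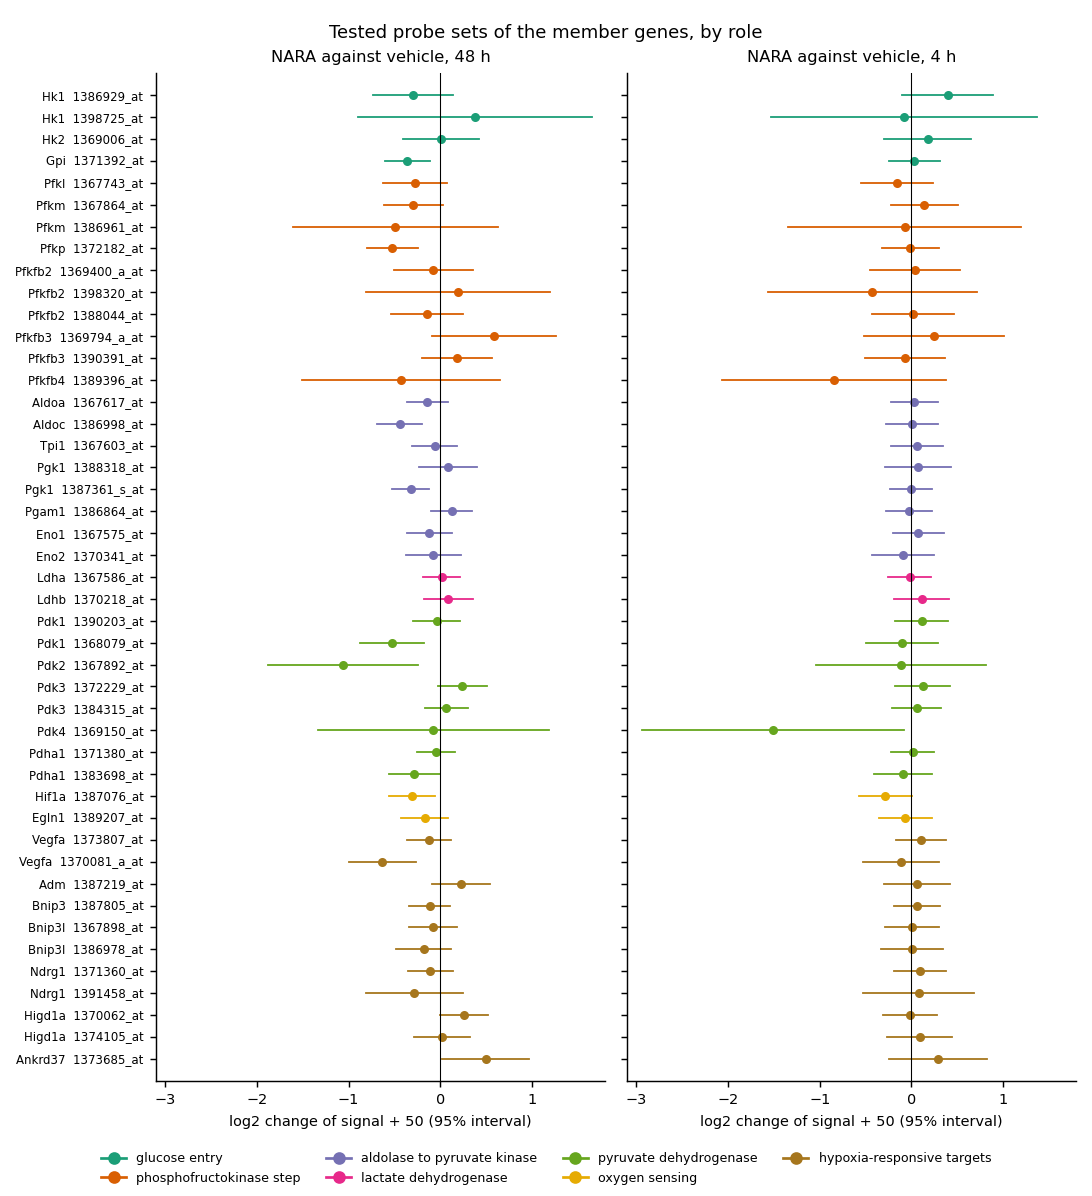
Log2 change of signal + 50 for each of the 45 tested member probe sets, NARA against vehicle, at 48 h (left) and 4 h (right), with points for the estimate, lines for its 95% interval and colours for the role of the gene. At 48 h 30 of the 45 points lie left of 0, and at 4 h 19 of the 45 do.

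At the entry of glucose into the pathway, Gpi, the isomerase that turns glucose 6-phosphate into fructose 6-phosphate, stood out by p. Its signals were 15048, 11349, 12728 and 12875 on the NARA 48 h arrays and 18026, 16661 and 15296 on the vehicle 48 h arrays. Every NARA array was below every vehicle array, although the highest NARA value lay close to the lowest vehicle value. The log2 change was -0.36 (SE 0.11, adjusted p = 0.121). Hk1 and Hk2 are the hexokinases that trap glucose in the cell. The brighter main Hk1 probe set had a log2 change of -0.30 (95% interval -0.74 to 0.14), the dimmer one 0.38 (-0.90 to 1.66) and Hk2 one of 0.010 (-0.41 to 0.43). Of the Hk1 control probe sets, looked at after their values were seen, the one for the 3' end averaged 827 ± 178 under NARA (SD, n = 4) and 1399 ± 157 under vehicle (SD, n = 3). In a fit that included control probe sets its log2 change was -0.74 (SE 0.18, adjusted p = 0.0594), beside -0.69 (adjusted p = 0.266) for the 5' control and -0.22 (adjusted p = 0.751) for the middle one.

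Pfkp had the smallest p of all members at 48 h. The signals were 5212, 6050, 4932 and 4377 on the NARA arrays, against 6679, 7938 and 7515 on the vehicle arrays. All NARA 48 h values were therefore below all vehicle 48 h values, and they were also below all 4 h values, which were 7024 and 7680 under NARA and 6626 to 7940 under vehicle. The log2 change at 48 h was -0.52 (SE 0.13). The 2 other subunits had negative changes that were smaller, with intervals that reached past 0: Pfkl, the liver type, had -0.27 (95% interval -0.62 to 0.08) and the brighter probe set of Pfkm, the muscle type, -0.29 (-0.62 to 0.030). Of 6 probe sets for Pfkfb2, Pfkfb3 and Pfkfb4, which make and remove the fructose bisphosphate that activates phosphofructokinase, 3 had positive and 3 negative changes. The most positive was 0.59 for Pfkfb3 (95% interval -0.090 to 1.26, adjusted p = 0.393). These probe sets were dim and their arrays scattered: Pfkfb4, for example, ran from 113 to 473 on the NARA 48 h arrays.

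Among the enzymes from aldolase onwards, Aldoc, an aldolase isoform, had the smallest p. It gave 4128, 3539, 4694 and 4032 on the NARA 48 h arrays and 5879, 5789 and 5051 on the vehicle 48 h arrays. The groups did not overlap, and the log2 change was -0.44 (SE 0.11). Here the vehicle 48 h arrays were the high group: the 4 h arrays gave 4227 and 4750 under NARA and 4241 to 4602 under vehicle, within or near the NARA 48 h range. Aldoa, the isoform of muscle, had a log2 change of -0.14 (95% interval -0.36 to 0.08).

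Pgk1 encodes phosphoglycerate kinase, the first step of glycolysis that yields ATP, and its tested probe sets disagreed. The probe set 1387361_s_at gave 40622, 36883, 34792 and 34790 on the NARA 48 h arrays and 44730, 45192 and 47922 on the vehicle 48 h arrays, without overlap. Its log2 change was -0.32 (SE 0.092). In Affymetrix naming the suffix _s_at marks a probe set whose probes match several transcripts, so other transcripts may share its signal. The brightest Pgk1 probe set, 1388318_at, gave 103385, 95735, 76012 and 84118 under NARA and 85513, 75738 and 91957 under vehicle at 48 h. Those groups overlapped, with a log2 change of 0.08 (95% interval -0.24 to 0.40).

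The remaining enzymes of this stretch showed small changes. Gapdh was read by its 3' control probe set at 103108, 87680, 92589 and 87792 on the NARA 48 h arrays and 99076, 88254 and 93521 on the vehicle 48 h arrays. These values overlapped, and the 3 Gapdh control probe sets had log2 changes of -0.014, 0.074 and -0.011. Tpi1, Eno1 and Eno2, an isomerase and a pair of enolases, had changes of -0.06, -0.12 and -0.08, with 95% intervals between -0.38 and 0.22. The mutase Pgam1 was 44751 ± 2531 under NARA (SD, n = 4) and 40996 ± 1847 under vehicle (SD, n = 3), without overlap and with adjusted p = 0.611.

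Both lactate dehydrogenase subunits had small differences. Ldhb gave 5453, 5719, 7076 and 6864 under NARA and 6404, 5854 and 5404 under vehicle at 48 h. The groups overlapped and the log2 change was 0.086 (95% interval -0.18 to 0.35). For Ldha, the subunit that favours lactate formation, the log2 change was 0.013 (95% interval -0.19 to 0.22).

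The pyruvate dehydrogenase kinases did not move as 1 group. A Pdk1 probe set, 1368079_at, gave 1514, 1206, 1471 and 1671 on the NARA 48 h arrays and 2671, 2041 and 1741 on the vehicle 48 h arrays. The groups did not overlap, and the log2 change was -0.53 (SE 0.16, adjusted p = 0.114). The other Pdk1 probe set, 1390203_at, had a change of -0.037 (95% interval -0.29 to 0.22). Pdk2 was dim and uneven, at 181, 534, 779 and 220 under NARA and 953, 933 and 620 under vehicle. Its groups overlapped, and its log2 change of -1.06 (SE 0.37, adjusted p = 0.174) was the most negative of the 45. Both Pdk3 probe sets had positive changes, of 0.24 and 0.066. Pdha1, the catalytic subunit that the kinases act on, had changes of -0.051 and -0.28, the second with adjusted p = 0.297.

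Hif1a, the transcription factor subunit that oxygen destabilises, gave 24965, 27164, 23040 and 24404 on the NARA 48 h arrays and 31832, 28216 and 32706 on the vehicle 48 h arrays. Every NARA array was below every vehicle array, and the log2 change was -0.31 (SE 0.12, adjusted p = 0.201). Egln1, the oxygen-sensing hydroxylase that marks Hif1a, had a change of -0.17 (95% interval -0.43 to 0.086).

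Among the hypoxia-responsive targets, Vegfa, the vascular growth factor, was read by 2 probe sets that differed in size of change. Probe set 1370081_a_at gave 691, 514, 872 and 838 under NARA and 1137, 1086 and 1188 under vehicle at 48 h. The groups did not overlap, and the log2 change was -0.63 (SE 0.17). The brighter probe set, 1373807_at, gave 2911, 2519, 2983 and 2797 under NARA and 3187, 3305 and 2697 under vehicle. These overlapped, with a change of -0.12 (95% interval -0.36 to 0.12). Ankrd37, an ankyrin repeat protein known as a target of hypoxia-inducible factor, ran the other way: 870, 712, 646 and 788 under NARA, against 561, 519 and 474 under vehicle. Its groups did not overlap, and the log2 change was 0.50 (SE 0.22, adjusted p = 0.286). This was the sole member with a positive change at an unadjusted p under 0.05.

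The other targets lay closer to 0. Adm, a vasodilator peptide, had a log2 change of 0.22 (95% interval -0.093 to 0.54), and the brighter probe set of Higd1a, a mitochondrial protein, 0.26 (-0.0032 to 0.52). The mitophagy receptors Bnip3 and Bnip3l had changes between -0.18 and -0.08. Ndrg1, a stress-responsive gene, had -0.11 and -0.28 on its probe sets, with adjusted p of 0.706 and 0.630.

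**Figure D2:**
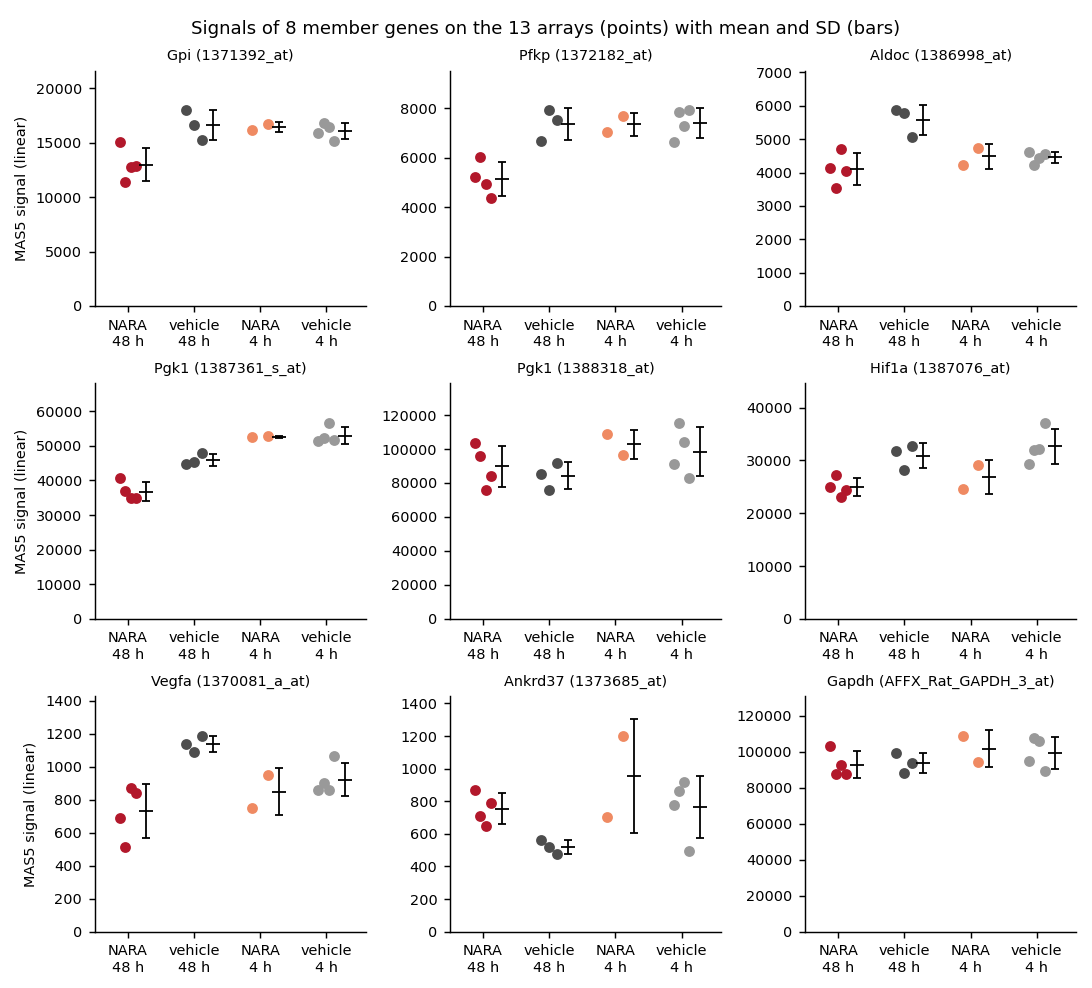
MAS5 signal on a linear axis from 0, for 9 probe sets of 8 member genes, with 1 point per array in the 4 groups and bars for the mean and SD. The NARA 48 h points lie below all vehicle 48 h points for Gpi, Pfkp, Aldoc, Pgk1 (1387361_s_at), Hif1a and Vegfa (1370081_a_at) and above them for Ankrd37, while those of Pgk1 (1388318_at) and Gapdh overlap.

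At 4 h no member passed the threshold either, and the background was 0% of all probe sets. At an unadjusted p under 0.05, 1 of 45 members (2.22%) was found, against 4.75% of all probe sets. Groups that did not overlap were seen for 3 members (6.67%), against 14.3% of all probe sets. The members' median log2 change was 0.015, with 0.0072 over all probe sets, and 26 were positive and 19 negative. Of the 12 genes read by several tested probe sets, 3 had the same sign on all of them at 4 h. The 9 exceptions were Higd1a, Hk1, Pdha1, Pdk1, Pfkfb2, Pfkfb3, Pfkm, Pgk1 and Vegfa. For 34 of the 45 the 95% interval lay within 1.5-fold in both directions. With 2 NARA arrays the precision at 4 h rests largely on the spread in the other groups.

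Pdk4, the starvation-induced kinase, was the member at an unadjusted p under 0.05. It gave 35.7 and 741 on the NARA 4 h arrays and 961, 479, 761 and 648 on the vehicle 4 h arrays. One NARA array lay far below all others and the other inside the vehicle range, so the log2 change of -1.51 (SE 0.65, adjusted p = 0.9998) rested on 1 array. Without NARA 4 h replicate 2, the low array, the change was 0.092. Pfkfb4 was likewise low on the same array, with 96.1 and 521 under NARA and 755, 478, 267 and 493 under vehicle (log2 change -0.85, SE 0.56).

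Hif1a gave 24511 and 29117 on the NARA 4 h arrays and 29231, 32050, 32138 and 37141 on the vehicle 4 h arrays. The groups did not overlap, but by a margin of under 1% of the signal, and the log2 change was -0.28 (SE 0.13, adjusted p = 0.9998). Hk1 (1386929_at) was on the other side, with 4684 and 3634 under NARA against 2735, 3573, 3468 and 2822 under vehicle (log2 change 0.39, SE 0.23). Here too the groups did not overlap, although 3634 under NARA lay close to 3573 under vehicle. The other tested Hk1 probe set, 1398725_at, gave 80.5 and 435 under NARA and 240, 44.9, 475 and 293 under vehicle, with overlap. The Hk1 control probe sets had changes of 0.093 (3' end), -0.082 (5' end) and -0.32 (middle) at 4 h. Ankrd37 had 705 and 1203 under NARA and 778, 864, 920 and 496 under vehicle, with the NARA arrays on either side of most vehicle arrays.

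Several probe sets named at 48 h had overlapping groups at 4 h. Pgk1 (1387361_s_at) gave 52437 and 52794 under NARA and 51301, 52289, 56687 and 51559 under vehicle, and its log2 change was -0.0082 (95% interval -0.24 to 0.22). Vegfa (1373807_at) gave 2827 and 2730 under NARA and 2669, 2834, 2426 and 2389 under vehicle, a change of 0.11 (95% interval -0.16 to 0.38). Both overlapped between the groups, and this Vegfa probe set had overlapped at 48 h as well. The Vegfa probe set without overlap at 48 h, 1370081_a_at, gave 748 and 949 under NARA at 4 h. Its vehicle 4 h arrays gave 860, 898, 856 and 1067, so those groups overlapped at 4 h.

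Eno1 and Ldhb had the smallest p at 4 h in their role groups, and both were within the vehicle range or next to it. Eno1 gave 65462 and 58407 under NARA and 56849, 62312, 63868 and 52453 under vehicle. Ldhb gave 5526 and 5504 under NARA and 5670, 4920, 4662 and 5191 under vehicle. The 3' Gapdh control gave 108859 and 94368 under NARA and 94885, 107713, 105987 and 89070 under vehicle, again with overlap. For Pfkp and Aldoc, the changes at 4 h were -0.010 (95% interval -0.32 to 0.30) and 0.0073 (-0.27 to 0.29).

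The difference between the NARA effects at 48 h and at 4 h was tested directly, because a change near the threshold at 48 h and not at 4 h does not by itself show that the effects differ. No member passed, where the background was 0.124% of all probe sets. At an unadjusted p under 0.05 there were 5 members, all with the lower effect at 48 h (11.1%, against 9% of all probe sets): Hk1 (1386929_at), Gpi, Pfkp, Aldoc and Pgk1 (1387361_s_at). The other tested probe sets of Hk1 and Pgk1 had differences of the opposite sign. The difference was -0.51 for Pfkp (SE 0.19, adjusted p = 0.458) and -0.45 for Aldoc (SE 0.17, adjusted p = 0.467).

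Between 48 h and 4 h, 1 member changed under NARA. Pgk1 (1387361_s_at) fell to 40622, 36883, 34792 and 34790 on the NARA 48 h arrays, against 52437 and 52794 on the NARA 4 h arrays. No array of the 2 times overlapped, and the fold was 1.43 lower at 48 h (log2 change -0.52, SE 0.10, adjusted p = 0.0499). In vehicle the same probe set gave 44730, 45192 and 47922 at 48 h and 51301 to 56687 at 4 h, again without overlap, with a log2 change of -0.20 (SE 0.092, adjusted p = 0.674), and the difference between the 2 time effects was -0.32 (adjusted p = 0.544). The brightest Pgk1 probe set had changes of -0.20 under NARA and -0.21 in vehicle, with adjusted p of 0.700 and 0.781. The call stood at the edge of the threshold: of 13 fits that each left out 1 array it held in 1, without NARA 48 h replicate 1, and the adjusted p ranged from 0.0443 to 0.237.

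Under NARA that single member was 2.22% of the 45, against a background of 0.785% of all probe sets. At an unadjusted p under 0.05, 8 members were lower and 2 higher at 48 h (22.2%, against 11.6%), and 28.9% of members had no overlap between the times, against 21.0% of all probe sets. In vehicle no member passed, with a background of 0%. There 3 members were lower and 4 higher at an unadjusted p under 0.05 (15.6%, against 7.35%), and 11.1% did not overlap, against 8.90%. The NARA and the vehicle time comparisons share no arrays with each other, but each shares its 48 h arrays with the comparison at 48 h. Ldha, looked at after its values were seen, gave 44270, 37873, 43030 and 41431 at 48 h and 49626 and 50022 at 4 h under NARA. In vehicle it gave 42124, 40939 and 40542 at 48 h and 51305, 49760, 54549 and 46387 at 4 h. Neither pair overlapped, and the log2 changes were -0.26 (SE 0.11, adjusted p = 0.367) and -0.29 (SE 0.094, adjusted p = 0.561).

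The promoters of Pfkp, Aldoc and Ankrd37 are shown because these genes were the nearest to the threshold on the lower side and the sole one on the higher side at 48 h. Each line gives the 250 bases before the annotated start of the gene on the plus strand of GRCr8, from RefSeq, with the core of the hypoxia response element in capitals. That core was searched as ACGTG or GCGTG on both strands, and it overlaps the E-box CACGTG, which holds it on both strands. The Pfkp line is chr17:68639563-68639812, the Aldoc line chr10:63715294-63715543 and the Ankrd37 line chr16:53001257-53001506.
Pfkp: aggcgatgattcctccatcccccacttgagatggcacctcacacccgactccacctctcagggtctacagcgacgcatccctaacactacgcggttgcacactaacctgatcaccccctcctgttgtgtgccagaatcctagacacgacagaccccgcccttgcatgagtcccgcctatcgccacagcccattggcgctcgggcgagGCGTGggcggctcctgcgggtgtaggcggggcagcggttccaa
Aldoc: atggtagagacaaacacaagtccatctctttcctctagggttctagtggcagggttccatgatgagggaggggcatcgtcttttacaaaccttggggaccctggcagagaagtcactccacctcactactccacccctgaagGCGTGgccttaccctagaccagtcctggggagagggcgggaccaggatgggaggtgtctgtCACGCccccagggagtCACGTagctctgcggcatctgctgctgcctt
Ankrd37: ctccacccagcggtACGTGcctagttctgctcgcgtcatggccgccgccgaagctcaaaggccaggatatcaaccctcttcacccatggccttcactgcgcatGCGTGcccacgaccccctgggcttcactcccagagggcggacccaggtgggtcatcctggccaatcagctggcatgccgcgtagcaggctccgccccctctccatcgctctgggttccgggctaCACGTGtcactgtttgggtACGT
Counting to 50 bases past the start, Pfkp held 2 cores, at positions -43 and 10 from the start. Aldoc held 3, at -108, -47 and -31. Ankrd37 held 5, at -236, -147, -23, -22 and -4, of which those at -23 and -22 are the strands of 1 E-box and the last runs past the printed bases.

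Of the 35 genes, 32 had an entry in the promoter table (not Pgk1, Bnip3l or Ndrg1), with 37 windows that ran from 250 bases before to 50 bases after a start. A core was found in 24 of the 37 windows (64.9%). Among the genes tested on the array, 6266 of 10506 windows (59.6%) held one, so the letters alone were about as common elsewhere. Neither Vegfa window held a core, and Hif1a held 3, of which those at -229 and -228 are the strands of 1 E-box. The half-site of the androgen response element, searched as AGAACA or TGTTCT, was in 6 of the 37 windows (16.2%), against 12.8% for genes tested on the array. Those windows belonged to Aldoa, Tpi1, Gapdh, Vegfa, Adm and Higd1a, and none to Pfkp, Aldoc or Ankrd37. A match describes letters in a window and shows no binding, and a missing match says nothing about sites elsewhere.

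Other genes of the same pathways were read from 2 further lists. Of 40 other genes of glycolysis and pyruvate use, 31 were tested with 37 probe sets. None rose and 2 fell at 48 h, 5.41% of the probe sets against the background of 2.80%, and their median log2 change was 0.06. Slc2a3, the high-affinity glucose transporter known as GLUT3, averaged 1894 ± 172 under NARA (SD, n = 4) and 3045 ± 275 under vehicle (SD, n = 3), 1.59-fold lower without overlap (adjusted p = 0.0173). Pygl, the glycogen phosphorylase of liver, averaged 5114 ± 222 under NARA and 7877 ± 878 under vehicle, 1.53-fold lower without overlap (adjusted p = 0.0111). Leaving out 1 array at a time kept Slc2a3 past the threshold in 11 of 13 fits (not without vehicle 48 h replicate 2 or 3) and Pygl in 12 of 13 (not without vehicle 48 h replicate 2). No gene of this list passed at 4 h, in the difference of effects or between times.

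Of 50 other hypoxia pathway genes, 42 were tested with 61 probe sets, and at 48 h 4 probe sets of 4 genes rose and 8 probe sets of 4 genes fell. These were 19.7% of the list's probe sets, against 2.80% of all probe sets, in a list chosen with earlier results of these data known. The median log2 change was -0.0076, with 29 positive and 32 negative. Among those that rose, Ddit4, a stress-induced inhibitor of mTORC1, was 1.81-fold higher (4835 ± 703 under NARA and 2649 ± 449 under vehicle, adjusted p = 0.0128), and Errfi1, a feedback inhibitor of the EGF receptor, was 1.92-fold higher (adjusted p = 0.0289). Ddit4 was lost without vehicle 48 h replicate 2, and Errfi1 held in 8 of the 13 fits that left out an array, being lost without vehicle 48 h replicates 2 or 3 or NARA 48 h replicates 1, 2 or 4. Vhl, part of the ubiquitin ligase that removes Hif1a protein, and Lox, the collagen-crosslinking lysyl oxidase, were taken up after their values were seen. Vhl was 1.31-fold higher (adjusted p = 0.0387) and Lox 1.35-fold higher (adjusted p = 0.0414), and each held in 1 of those 13 fits.

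The genes that fell were Cxcr4, Cxcl12, Cited2 and Selenbp1. The chemokine receptor Cxcr4 fell 8.6-fold on probe set 1370097_a_at (421 ± 126 under NARA and 3888 ± 277 under vehicle, adjusted p = 4.9e-05), and its ligand Cxcl12 fell 1.73-fold (adjusted p = 0.00263). Cited2, a transcriptional cofactor that competes with Hif1a for its coactivator, fell 1.56-fold (6338 ± 461 under NARA and 9882 ± 272 under vehicle, adjusted p = 0.00229). Selenbp1 fell 1.90-fold (adjusted p = 0.0098). Cxcr4 also passed in the difference of effects (-2.65, adjusted p = 0.0203), in 9 of the 13 fits that left out an array and not without NARA 4 h replicates 2 or 3, vehicle 48 h replicate 3 or NARA 48 h replicate 4. Between 48 h and 4 h under NARA, Cxcr4 (-2.20, adjusted p = 0.00352) and Cited2 (-0.50, adjusted p = 0.0465) were lower at 48 h, but Cited2 passed in none of those 13 fits (adjusted p 0.0586 to 0.230). No gene of this list passed at 4 h or between times in vehicle.

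**Figure D3:**
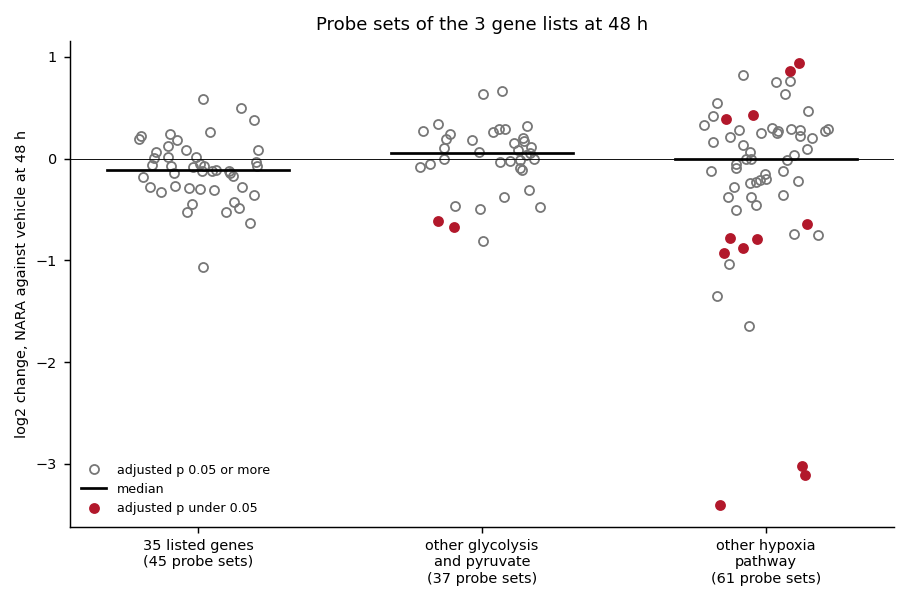
Log2 change of each tested probe set, NARA against vehicle at 48 h, for the 35 listed genes (45 probe sets), 37 probe sets of other glycolysis and pyruvate genes and 61 of other hypoxia pathway genes, with filled points past the threshold and lines for medians. No filled point is seen in the first list, 2 in the second, both below 0, and 12 in the third, 4 above and 8 below 0.

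On NARA 4 h replicates 1 and 4, which the authors left out, many member probe sets stood far from the kept arrays. Both lay below the whole range of the 13 kept arrays for 32 of the 51 member probe sets and above it for 5. The same count was not made over all probe sets, across which these arrays correlated with the 13 at 0.645 to 0.673. Aldoc gave 172 and 109 there, against 3539 to 5879 on the 13 arrays, and Eno2 507 and 248, against 8459 to 14070. Ldha was above the range, at 67739 and 66009, against 37873 to 54549. The liver marker signals summed to 1242420 and 1525470 on these arrays and to between 2542 and 4158 on the 13 kept arrays. With all 16 arrays in the fit the members' median log2 change at 4 h was -0.61 in place of 0.015, and again no member passed. Vehicle 48 h replicate 1 lay inside the range of the 13 arrays for 42 of the 51 probe sets, a count also not made over all probe sets. When this array was put back, Pfkp (-0.50, adjusted p = 0.0315) and Aldoc (-0.42, adjusted p = 0.0384) passed the threshold at 48 h. In that fit 3.68% of all probe sets passed, against 2.80% without this array.

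**Figure D4:**
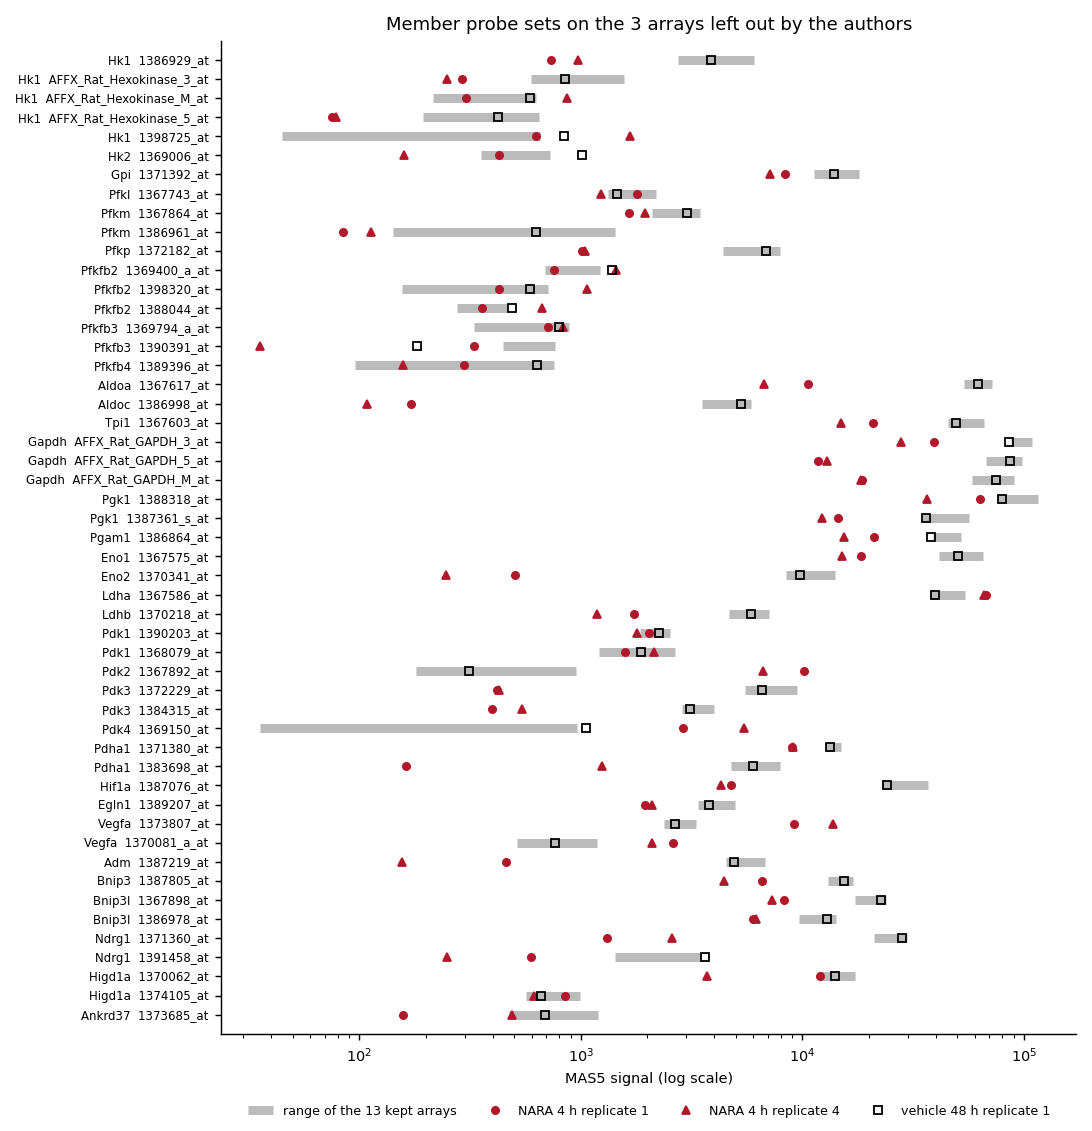
MAS5 signal on a log axis for the 51 member probe sets, with a grey bar for the range of the 13 kept arrays and symbols for the arrays left out by the authors. Both NARA 4 h arrays lie left of the bar for 32 probe sets and right of it for 5, and vehicle 48 h replicate 1 lies inside it for 42. These counts were not made over all probe sets.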

How the data were processed

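RNA from 16 samples was measured on Affymetrix Rat Genome 230 2.0 arrays, each labelled from 5 µg of total RNA per the labels. RNA extraction is given as Trizol in the labels and as a PerfectPure kit in the series' design text. The deposited values are intensity signals on a linear scale that the authors computed with the MAS5 algorithm and scaled on each array to a target of 1500, per the series' design text. MAS5 signals of dim probe sets scatter widely: within groups, the median coefficient of variation of the members was 26.3% at mean signals of 300 to 1000, 10.2% at 1000 to 10000 and 8.21% above that. No slide, scan date or batch is given in the labels used here. The number of arrays limits the precision.

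From these, the log2 of signal + 50 was fitted with group means in limma 3.58.1 (R 4.3.3), for the 20904 probe sets whose mean over the 13 arrays reached 300, without 57 control probe sets. The offset makes fold changes of dim probe sets too small. All 4 groups shared 1 spread, with 9 residual degrees of freedom. Two-sided p-values of 5 contrasts were adjusted by Benjamini-Hochberg over all probe sets tested, at 0.05. The script was tested on simulated data. Figures were drawn with matplotlib 3.10.9.

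The platform annotation gave 20826 probe sets 1 symbol, 436 several and 9780 none. The members and gene lists were chosen with earlier results of these data known. Genes named in full were those past the threshold, the smallest p of each role group in each NARA comparison, and Hif1a, Vegfa and Gapdh. Replicate numbers recur across groups, but the 16 pairs of arrays that share a number had deviations correlated at only -0.036 to 0.039, so they were not treated as paired.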

Additional observations from a re-analysis of the deposited data

Results flagged for a closer look

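One of 32 groups of 4 arrays looked at for the members named in full held an array far from its group. Pdk1 (1368079_at) gave 2156 on vehicle 4 h replicate 1, with the other vehicle 4 h arrays at 1700 to 1758, and chance alone flags about 1 in 20 such groups.

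On NARA 4 h replicates 1 and 4, which the authors left out, 3 member probe sets were at least 2-fold above every one of the 13 kept arrays. That count was not made over all probe sets. The lower of these arrays exceeded the highest kept array 6.97-fold for Pdk2 (1367892_at, 10236 and 6639, against 181 to 953), 3.00-fold for Pdk4 (1369150_at, 2886 and 5441, against 35.7 to 961) and 2.77-fold for Vegfa (1373807_at, 9152 and 13804, against 2389 to 3305).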

How the results depend on the processing

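The count of members past the threshold for NARA against vehicle at 48 h was 0, where 2.80% of all probe sets passed. It became 2 when vehicle 48 h replicate 1 joined the fit (3.68% of all probe sets) and 1 at an offset of 200 (2.95%). With a signal minimum of 1000 it was 5 (Gpi, Pfkp, Aldoc, Pgk1 and Pdk1, of 31 tested), where 9.54% of 11210 probe sets passed. It was 2 with quantile normalization (3% of all probe sets) and 4 with a trended and robust prior (5.25%). All of these members were lower under NARA, and calls rose over all probe sets as well. Leaving out 1 array at a time gave 0 to 2 members at 48 h. They were Pfkp without NARA 48 h replicate 2 (2.3% of all probe sets passed) and Pdk2 and Aldoc without NARA 48 h replicate 3 (2.13%). At 4 h the Pdk4 change was -3.11 without NARA 4 h replicate 3, a fit with 1 NARA array at 4 h. For 48 h against 4 h under NARA, the count of 1 was 0 with all 16 arrays, with 14 arrays, with only the groups compared, with no signal minimum and with median scaling, 3 with the trended and robust prior (Pgk1, Pfkp and Eno1), and 0 to 1 when 1 array was left out (Pgk1 without NARA 48 h replicate 1, and Pdk4, higher at 48 h by 3.13, without NARA 4 h replicate 3). With the replicate block it was 0, and the block brought the 4 h change of Pgk1 (1387361_s_at) to 0.0056 from -0.0082. In vehicle over time and in the difference of effects the count was 0 under every alternative run. Over all probe sets the 586 calls at 48 h became 39 with all 16 arrays, 217 with only the groups compared, 355 with no signal minimum, 312 with the replicate block, 1069 with a minimum of 1000, 1098 with the trended and robust prior, and 310 to 527 when 1 array was left out (310 and 321 without vehicle 48 h replicates 3 and 2). The fit of control probe sets was chosen after seeing the data. The causes were not tested.

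With all 16 arrays, changes turned sign at 4 h for Hk1 (-0.72), Eno1 (-0.87), Ldhb (-0.84), Pdk4 (0.46) and Ankrd37 (-0.48), between times under NARA for Pgk1 (0.47 and 0.35) and Cited2 (0.43), and in the difference of effects for Pgk1 (0.76). Leaving out 1 array gave, at 4 h, -1.83 to 0.13 for Pfkfb4, -0.0070 to 0.16 for Eno1, -3.11 to 0.092 for Pdk4, -0.075 to 0.65 for Ankrd37 and -0.023 to 0.025 for Pgk1. At 48 h none of the changes followed through these alternatives turned sign. The 48 h changes of Gapdh, Ankrd37 and Pdk2 were not among those followed. Over all 45 members the 30 negative changes became 27 without NARA 48 h replicate 2 or vehicle 48 h replicate 2 and 32 with quantile normalization or the replicate block.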
